A study of Homo sapiens with 2 samples.

Results

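CD74, the class II transactivator gene CIITA and 8 genes for chains of MHC class II molecules were examined in RNA sequencing from a study of dacarbazine resistance in melanoma. The 10 genes were taken by symbol from the 18930 genes of the deposited table, and all 10 had counts. They were selected with their values in these same libraries known, so that those values are given as a description, without a test. The study compared A375, a human melanoma cell line, made resistant to the DNA-alkylating drug dacarbazine (DTIC, spelled DITC in the labels) with the wild-type control, to find features of the resistant cells. Resistant cells were those that survived rising concentrations of the drug. The labels give DMEM with fetal bovine serum as the medium of both cultures, while the study's methods name RPMI-1640 for its tumor cells. One library was labelled DR (drug-resistant) and 1 was labelled WT (wild type). The labels give 105 days of the drug for both libraries, although the study describes WT as the control. Each count column was matched to its library by the sample description. The 2 descriptions differ in 1 punctuation mark and neither names the wild type, so every direction given here rests on them.

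MHC class II molecules are heterodimers of an alpha and a beta chain that show peptides from the endosomal route to CD4 T cells. In the endoplasmic reticulum they bind the invariant chain, encoded by CD74, whose CLIP fragment fills the groove until the exchange factor HLA-DM removes it. HLA-DO restrains HLA-DM. CIITA does not bind DNA itself. It is recruited by the RFX complex, NF-Y and CREB on the X and Y boxes of class II promoters, and its own amount sets class II transcription. B cells, dendritic cells and macrophages express class II constitutively, plasma cells switch CIITA off, and melanoma cells can express class II, in some cases without interferon-gamma.

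The libraries held 54878310 (DR) and 35294629 (WT) estimated reads after rounding, and reads were scaled to counts-per-million values (CPM) of a TMM-adjusted library size. A gene was counted as past the limit when log2(CPM + 0.5) differed by at least 1, that is 2-fold. With 1 library per group there is no replicate check, and each interval is a 95% interval of read counting only. Markers of the labelled cell type were few. Of 8 melanocytic genes, MITF had 34.6 CPM in the DR-labelled library and 34.7 in the WT-labelled one, PMEL had 4.46 and 2.35 CPM, MLANA 2.21 and 2.55 CPM, DCT 13 and 9 reads, TYRP1 0 and 17 reads and SOX10, the lineage factor, 3 and 0 reads. TYR and S100B were not analysed here, and the list summed to 41.6 and 40.4 CPM. Past the limit were 0 of 5 tested genes, beside 7.48% higher and 4.16% lower over all genes tested. The 10 plasma cell markers summed to 4849 and 5890.3 CPM, with JCHAIN at 2012 and 2917 CPM. These values go against the label of melanoma cells, and the libraries are named by their labels only.

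The sequences below show the stretch before the start of the genes, where the X and Y boxes of class II promoters lie. RefSeq promoter windows of 300 bases (GRCh38.p14) were matched to 8 of the 10 genes, and HLA-DRA and CIITA had no match. Capitals mark the letters AGNNACNGA, a shortened X1 box that the RFX complex recognises, and ATTGG, the core of the Y box bound by NF-Y, on either strand. Each line gives the 140 bases before the start of the gene, read 5′ to 3′ on the strand of the gene. In the first 4 genes an X1 box was followed by a Y box core on the same strand.
HLA-DRB1, chr6:32589849-32589988, minus strand: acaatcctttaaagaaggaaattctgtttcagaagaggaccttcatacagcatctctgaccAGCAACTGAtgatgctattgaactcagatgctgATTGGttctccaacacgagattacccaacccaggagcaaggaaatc
HLA-DQB1, chr6:32666658-32666797, minus strand: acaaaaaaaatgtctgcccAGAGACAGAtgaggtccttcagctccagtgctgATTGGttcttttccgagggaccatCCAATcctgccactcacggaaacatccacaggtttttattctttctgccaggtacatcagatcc
HLA-DMA, chr6:32953098-32953237, minus strand: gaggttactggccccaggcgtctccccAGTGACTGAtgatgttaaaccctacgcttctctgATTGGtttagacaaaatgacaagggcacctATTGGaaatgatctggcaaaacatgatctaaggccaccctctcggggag
HLA-DQA1, chr6:32637266-32637405, plus strand: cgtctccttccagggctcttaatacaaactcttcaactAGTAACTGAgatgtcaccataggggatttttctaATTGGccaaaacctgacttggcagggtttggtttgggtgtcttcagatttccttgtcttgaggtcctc
In the next 4 genes the letters were incomplete or arranged otherwise. For HLA-DPA1 the stretch belongs to the second of 2 starts, because the window of the other start held neither motif. In HLA-DMB a reversed Y box core and a reversed X1 match share 1 base.
HLA-DMB, chr6:32941029-32941168, minus strand: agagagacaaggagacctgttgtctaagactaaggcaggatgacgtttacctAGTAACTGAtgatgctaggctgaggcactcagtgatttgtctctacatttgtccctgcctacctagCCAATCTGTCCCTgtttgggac
HLA-DPA1, chr6:33073650-33073789, minus strand: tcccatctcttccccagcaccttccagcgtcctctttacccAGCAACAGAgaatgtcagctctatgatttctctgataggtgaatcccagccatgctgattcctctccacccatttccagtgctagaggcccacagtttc
HLA-DPB1, chr6:33075850-33075989, plus strand: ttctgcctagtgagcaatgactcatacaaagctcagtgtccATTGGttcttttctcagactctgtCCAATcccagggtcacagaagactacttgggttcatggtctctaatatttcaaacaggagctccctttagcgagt
CD74, chr5:150412911-150413050, minus strand: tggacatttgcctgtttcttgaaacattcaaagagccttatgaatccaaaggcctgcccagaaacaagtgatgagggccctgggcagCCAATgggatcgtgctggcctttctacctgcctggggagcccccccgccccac

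The X1 letters were present in the windows of 6 of the 8 genes, against 15.3% of all 35116 windows of that length, and the Y core in 7 of 8, against 34.6%. The exceptions were CD74 and HLA-DPB1 for the X1 letters and HLA-DPA1 for the Y core. In HLA-DRB1 and HLA-DQB1 the first base of the Y core lay 33 bases after that of the X1 box, and in HLA-DQA1 and HLA-DMA it lay 34 bases after. The spacing of 32 to 35 bases was searched after these values had been seen. It occurred in 15 of the 35116 windows (0.0427%). Of these 15, 4 belonged to the genes above, 2 to HLA-DRB5 and HLA-DOA, and 9 to other genes. Of those 9, SLAIN2 and ST20 were among the genes tested, with log2 differences of -0.30 and -0.25. The longer Y box CTGATTGG, which contains the core, was in 3 of 8 windows (HLA-DRB1, HLA-DQB1 and HLA-DMA), against 3.97% of all. The octamer ATTTGCAT was in 0 of 8 (1.77% of all windows), and the gamma-activated site TTCNNNGAA, the same on both strands, was in HLA-DQA1 alone (7.66% of all windows). These are matches of letters and say nothing of binding in these cells.

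**Figure D1:**
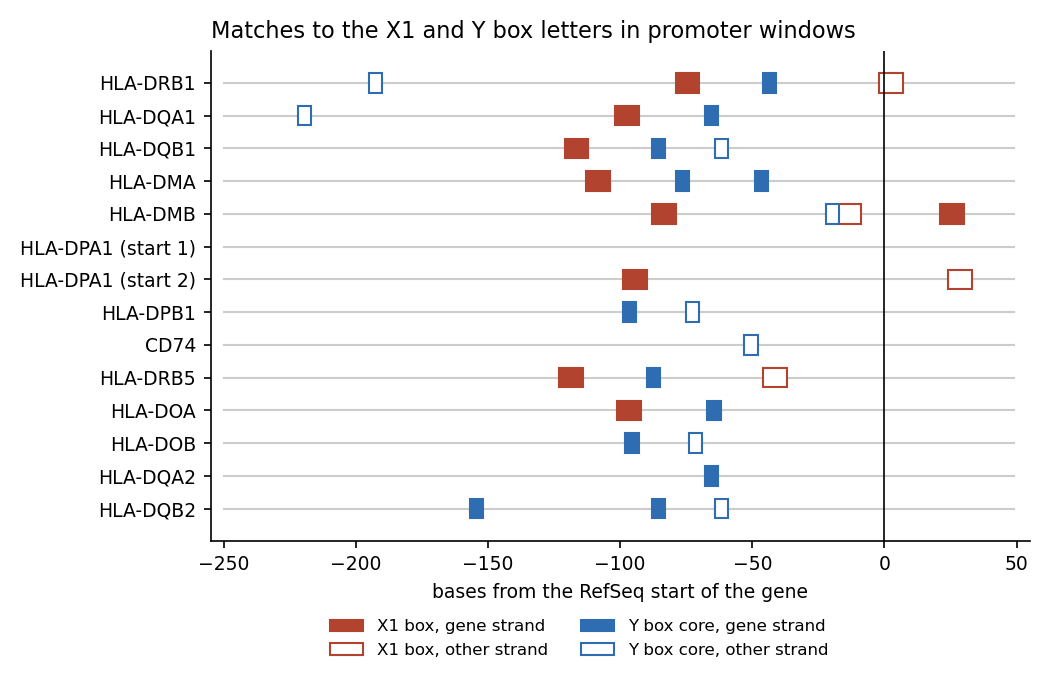
Positions of the X1 box letters (red) and Y box core letters (blue) in promoter windows of 8 of the 10 genes and of 5 other class II genes, in bases from the RefSeq start, filled on the strand of the gene and open on the other. HLA-DRB1, HLA-DQB1, HLA-DMA, HLA-DQA1, HLA-DRB5 and HLA-DOA share the order X1 then Y at 33 or 34 bases.

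Every one of the 10 genes had a higher CPM in the DR-labelled library, and 9 of them were past the 2-fold limit. The background was 7.48% of the 16210 genes tested higher in that library by the same limit and 4.16% lower. Nothing is read from this contrast of shares, since the genes had been selected on it. Together the 10 genes took 158889 reads (0.290% of the library, Clopper-Pearson interval 0.288 to 0.291%) in the DR-labelled library and 25552 reads (0.0724%, interval 0.0715 to 0.0733%) in the WT-labelled one. This was 3.90-fold more in CPM, with an interval of 3.85 to 3.95. Reads carry no molecular identifiers, so intervals do not cover amplification. In bulk RNA, more cells with class II and more class II RNA per cell cannot be told apart.

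**Figure D2:**
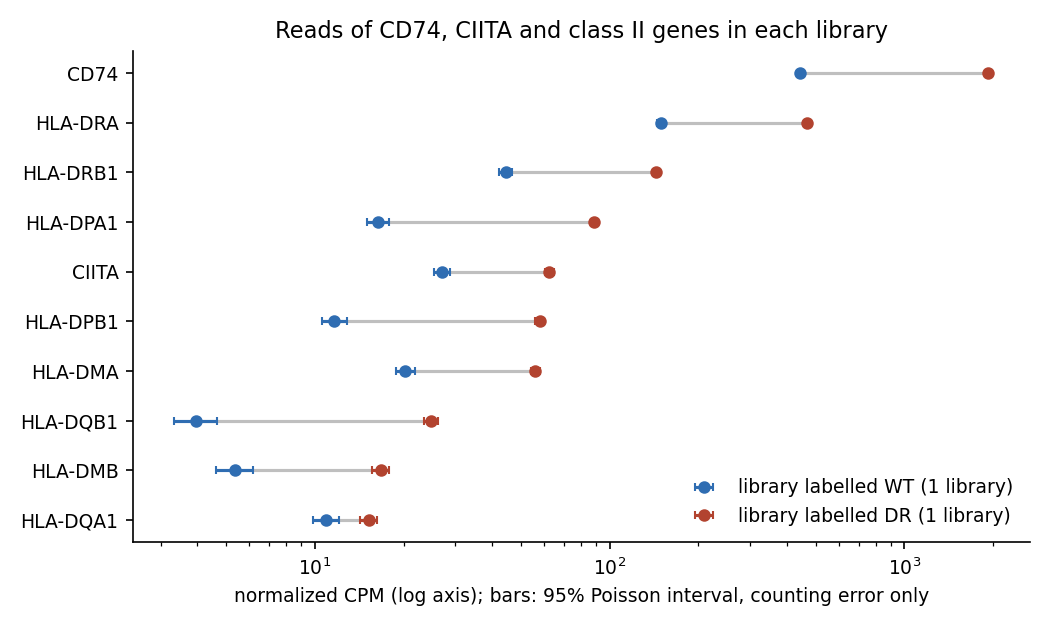
Normalized CPM (log axis) of the 10 genes in the library labelled DR (red) and the library labelled WT (blue), 1 library each, with 95% Poisson intervals for counting error. The red point lies to the right of the blue point in each row, with the shortest distance for HLA-DQA1 (15.2 against 11.0 CPM).

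CD74 (NCBI Gene 972), the invariant chain and also the receptor of the cytokine MIF, was the most abundant of the genes. It had 107003 reads in the DR-labelled library and 15464 in the WT-labelled one, or 1926 and 444 CPM. The log2 difference was 2.12, a 4.34-fold ratio with an interval of 4.27 to 4.42. Per base of gene length, on the TPM scale (reads per base, with the same sum over all genes in both libraries), its level ranked 38 of 18267 genes in the DR-labelled library and 180 in the WT-labelled one. CIITA (NCBI Gene 4261), the transactivator, had 3472 and 942 reads, or 62.5 and 27.0 CPM. Its log2 difference of 1.19 was the smallest of the 9 past the limit and corresponds to 2.31-fold (2.15 to 2.49). The ratio of CIITA thus lay below those of 8 of the other 9 genes, and above that of HLA-DQA1 only.

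HLA-DR is the class II isotype usually found at the highest level, made of a nearly invariant alpha chain and a polymorphic beta chain. HLA-DRA (NCBI Gene 3122) had 25995 reads in the DR-labelled library and 5204 in the WT-labelled one, which gave 468 and 149 CPM and 3.13-fold (3.04 to 3.23). HLA-DRB1 (NCBI Gene 3123) had 8004 and 1549 reads, 144 and 44.4 CPM, and a ratio of 3.24-fold (3.07 to 3.43). The intervals of HLA-DRA and HLA-DRB1 overlapped. The counts of HLA-DRB1 are fractional, and reads could have been split with its close copies HLA-DRB3, HLA-DRB4 and HLA-DRB5. These 3 copies together had 1731 and 201 reads, or 5.40-fold (4.67 to 6.28). Summed over the 4 DRB genes the ratio was 3.49-fold (3.32 to 3.67), and this interval lay above that of HLA-DRA.

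HLA-DP showed larger ratios. The alpha chain gene HLA-DPA1 (NCBI Gene 3113) had 4931 reads in the DR-labelled library and 572 in the WT-labelled one, 88.7 and 16.4 CPM, with a ratio of 5.41-fold (4.96 to 5.91). The beta chain gene HLA-DPB1 (NCBI Gene 3115) had 3226 and 406 reads, 58.1 and 11.6 CPM, and 4.99-fold (4.50 to 5.54). Both intervals lay above those of HLA-DRA, HLA-DRB1 and CD74.

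The HLA-DQ chains differed most from each other. HLA-DQB1 (NCBI Gene 3119), the beta chain, had 1375 reads in the DR-labelled library and 138 in the WT-labelled one, or 24.7 and 3.96 CPM. Its 6.25-fold ratio (5.24 to 7.50) was the highest of the 10, with an interval that overlapped those of HLA-DPA1 and HLA-DPB1. At a pseudocount of 5 CPM its log2 difference was 1.73, below HLA-DPA1 (2.13), CD74 (2.11) and HLA-DPB1 (1.92). HLA-DQA1 (NCBI Gene 3117), its alpha partner, had 846 and 382 reads, or 15.2 and 11.0 CPM. At 1.39-fold (1.23 to 1.57) and a log2 difference of 0.46 it was the lowest, and the only one of the 10 within the limit. Both have fractional counts and a close copy. Adding HLA-DQA2 to HLA-DQA1 gave 1.37-fold (1.25 to 1.52), and adding HLA-DQB2 to HLA-DQB1 gave 6.25-fold (5.26 to 7.48). The gap between the chains thus stood with the copies included. Whether alleles that differ from the reference sequence affected the reads of either chain was not tested.

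The chains of the exchange factor HLA-DM, which edits the peptide and does not itself present, were also past the limit. HLA-DMA (NCBI Gene 3108) had 3107 and 707 reads in the DR- and WT-labelled libraries, 55.9 and 20.3 CPM, and a ratio of 2.76-fold (2.54 to 2.996). HLA-DMB (NCBI Gene 3109) had 929 and 187 reads, 16.7 and 5.36 CPM, and 3.12-fold (2.66 to 3.67). Their intervals overlapped. Over all 10 genes the median log2 difference was 1.67, against 0.01 over all genes tested, and the range was 0.46 to 2.50. Nothing is read from this contrast of medians either, since the genes had been selected with these values known. Of the 45 pairs of genes, 38 had intervals of the ratio that did not overlap. The same count was not made for pairs of other genes, so it is not read as a trait of these 10. The intervals cover read counting only, and 6 of the 10 genes have fractional counts.

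**Figure D3:**
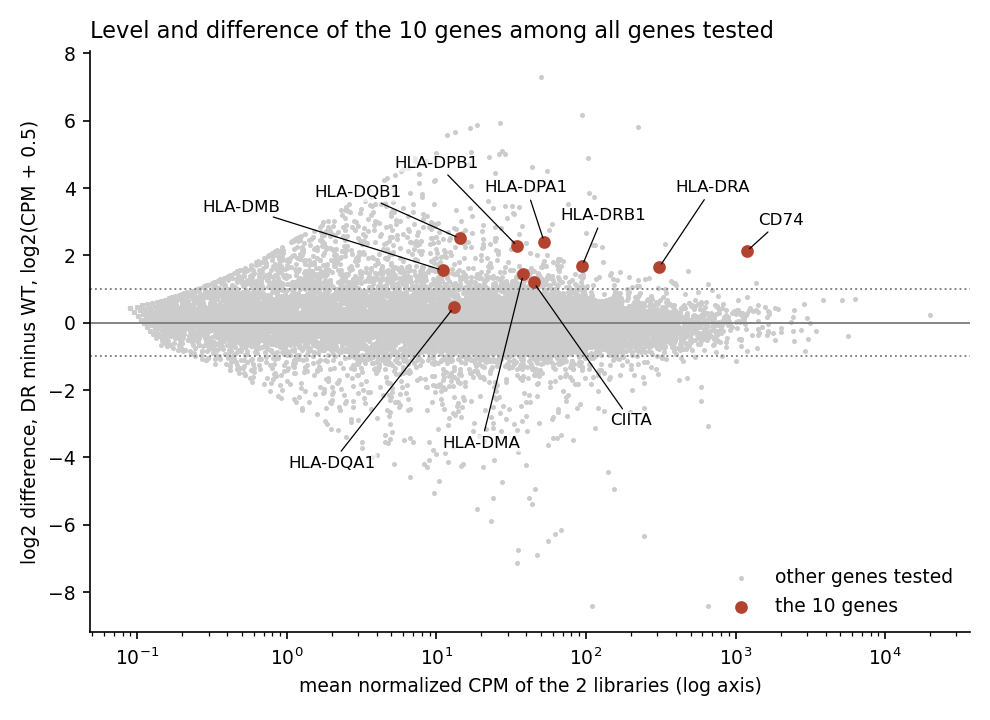
Each grey point is 1 of the other genes tested, by mean normalized CPM (log axis) and log2 difference of the library labelled DR minus the library labelled WT, with dotted lines at 1 and -1. The 10 genes (red) span mean levels from 11.0 to 1185 CPM, and HLA-DQA1 is the only one between the dotted lines.

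The levels of the 10 genes were ordered per base of gene length, on the TPM scale within 1 library. In the library labelled DR the order began with CD74 (2826 TPM), HLA-DRA (796), HLA-DRB1 (262), HLA-DPA1 (116) and HLA-DMA (111). It ended with CIITA (34.7), HLA-DQB1 (33.7), HLA-DPB1 (31.98), HLA-DQA1 (30.3) and HLA-DMB (26.4). Intervals of neighbours overlapped for HLA-DPA1 with HLA-DMA, and stepwise from CIITA through HLA-DQB1 and HLA-DPB1 to HLA-DQA1. In the library labelled WT the first 3 places were the same, with CD74 at 659, HLA-DRA at 257 and HLA-DRB1 at 81.7. HLA-DQA1 (22.1) stood in the fifth place there and HLA-DQB1 (5.47) in the last. Neighbours overlapped for HLA-DQA1 with HLA-DPA1 (21.8) and for HLA-DPB1 (6.49) with HLA-DQB1.

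The balance of alpha over beta chain RNA per base of length had overlapping intervals in the libraries for HLA-DR, HLA-DP and HLA-DM, when HLA-DRB1 stood for the beta chain of HLA-DR. The ratio of HLA-DRA to HLA-DRB1 was 3.04 (2.97 to 3.12) in the DR-labelled library and 3.15 (2.98 to 3.34) in the WT-labelled one. The ratio of HLA-DPA1 to HLA-DPB1 was 3.64 (3.48 to 3.80) and 3.35 (2.95 to 3.81), and that of HLA-DMA to HLA-DMB was 4.21 (3.91 to 4.53) and 4.76 (4.04 to 5.62). With the 4 DRB genes in place of HLA-DRB1, the ratio of HLA-DRA was 2.48 and 2.78. For HLA-DQ the ratio of HLA-DQA1 to HLA-DQB1 was 0.899 (0.824 to 0.980) and 4.04 (3.32 to 4.95), with the part of alleles not tested. The ratio of CD74 to HLA-DRA was 3.55 (3.50 to 3.60) and 2.56 (2.48 to 2.64), so that the invariant chain was further above HLA-DRA in the DR-labelled library. The listed length of HLA-DPB1 is 4055 bases against 1705 for HLA-DPA1, and a ratio per length depends on which transcript the cells used.

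**Figure D4:**
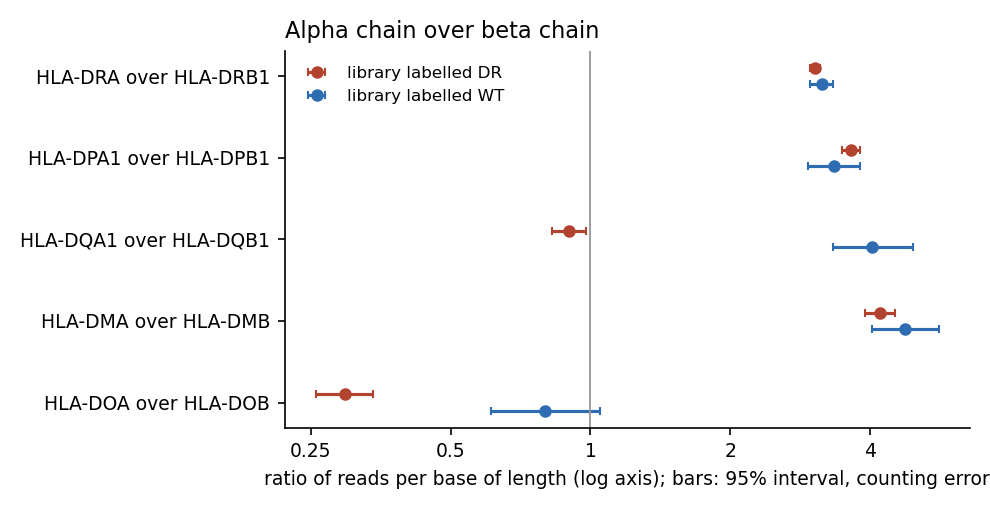
Ratio of alpha over beta chain reads per base of listed gene length (log axis) for HLA-DR, HLA-DP, HLA-DQ, HLA-DM and HLA-DO in the library labelled DR (red) and the library labelled WT (blue), with 95% intervals for counting error. The intervals of HLA-DR (with HLA-DRB1), HLA-DP and HLA-DM overlap, while HLA-DQ (0.899 and 4.04) and HLA-DO (0.295 and 0.797) lie apart.

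Other class II genes were higher in the DR-labelled library as well, with 3 of 7 past the limit, none past it in the other direction and a median log2 difference of 0.99. Over all genes tested 7.48% were past it higher and 4.16% lower. HLA-DOB, the beta chain of the HLA-DM inhibitor HLA-DO, had 472 and 85 reads in the DR- and WT-labelled libraries, 8.50 and 2.44 CPM, and a log2 difference of 1.61. HLA-DOA, its alpha chain, had 350 and 170 reads, 6.30 and 4.88 CPM, and 0.34. HLA-DOA over HLA-DOB per length was 0.295 (0.256 to 0.340) and 0.797 (0.610 to 1.05), with intervals apart as for HLA-DQ. HLA-DRB3 had 1035 and 69.5 reads and a log2 difference of 2.95, and HLA-DRB5 had 333 and 6.48 reads and 3.27. HLA-DRB4 had 363 and 125 reads and 0.78, HLA-DQA2 471 and 218 reads and 0.41, and HLA-DQB2 39.8 and 3.68 reads and 0.99. All of these but HLA-DOB have fractional counts, so the DRB and DQ copies are uncertain one by one.

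The factors that hold CIITA on class II promoters were within the limit, with 0 of 8 genes past it in either direction and a median log2 difference of -0.15. Over all genes tested 7.48% were past it higher and 4.16% lower. A count of 0 of 8, here and for the cofactors below, is near that share. RFX5, the DNA-binding subunit of the RFX complex, had 173 and 158 CPM in the DR- and WT-labelled libraries and a log2 difference of 0.13. Its partners RFXANK and RFXAP stood at 0.10 and -0.13. The NF-Y subunits NFYA, NFYB and NFYC had log2 differences of -0.16, -0.29 and 0.06, and CREB1 had -0.41. Of the 8 cofactors of CIITA none was past the limit either, with a range from -0.50 for CREBBP, a histone acetyltransferase, to 0.42 for SRA1, and EP300 at -0.41.

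Among 19 genes upstream of CIITA, 0 were past the limit in either direction and the median was 0.22. Over all genes tested 7.48% were past it higher and 4.16% lower. The interferon-gamma route was represented by JAK1 (log2 difference 0.27), JAK2 (0.49), IFNGR1 (0.08), IFNGR2 (0.71) and IRF1 (0.40). SOCS1, a feedback inhibitor of that route and a neighbour of CIITA, had 171 and 46 reads and 0.98. With library totals in place of TMM scaling, or a pseudocount of 0.1 CPM, it was the 1 gene of this list past the limit. PRDM1, the plasma cell repressor of CIITA, had 403 and 283 CPM and 0.51, and IRF4 had 600 and 831 CPM and -0.47. SPI1, a myeloid and B cell factor, had 30.1 and 17.5 CPM and 0.77.

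Genes that process antigen or turn class II over had a median log2 difference of 0.57. Past the limit was 1 of 12, near the 7.48% of all genes tested that were higher. That gene was CTSL, a cathepsin, with 97 reads in the DR-labelled library and 1 in the WT-labelled one. IFI30, the thiol reductase of the endosome, had 214 and 115 CPM and 0.89. CTSS, the cathepsin that trims the invariant chain in B cells and dendritic cells, had 115 and 67.8 CPM and 0.76. LGMN (0.66), CTSB (0.62) and CTSD (0.51) had somewhat smaller values, and CTSC was lower at -0.36. The ubiquitin ligase MARCHF8 stood at 0.82, and MARCHF1, which removes class II from the surface, at 0.03.

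Of 5 ligands and partners of CD74, CD44 was past the limit, beside 7.48% of all genes tested that were higher. CD44, the signalling partner of CD74 in MIF binding, had 11695 and 1521 reads in the DR- and WT-labelled libraries, 210 and 43.6 CPM, and a log2 difference of 2.26 (2.19 to 2.35 as the read ratio). MIF itself had 388 and 336 CPM and 0.21, its homologue DDT had 0.11, and the co-receptors CXCR4 and CXCR2 both had 0.14. Of 8 genes for costimulation and adhesion, 2 were past the limit, beside the same 7.48% of all genes, and the median was 0.64. CD40, the receptor through which T cells activate presenting cells, had 1016 and 84.1 reads, 18.3 and 2.41 CPM, and 2.69. PDCD1LG2 had 148 and 36 reads and 1.05. CD86 (0.55), CD80 (0.06), ICOSLG (0.93), ICAM1 (0.36), CD58 (0.22) and CD274 (0.73) were within the limit.

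Class I presentation genes, which CIITA can also reach, had a median log2 difference of 0.39. Past the limit were 2 of 14, beside 7.48% of all genes tested that were higher. HLA-B had 1272 and 800.5 CPM in the DR- and WT-labelled libraries and 0.67, and B2M, the light chain, had 1272 and 1080 CPM and 0.24. The genes past the limit were HLA-F (29.0 and 7.34 CPM, 1.91) and HLA-G (10.3 and 4.73 CPM, 1.05), which have close copies among class I genes and fractional counts. NLRC5, the class I transactivator related to CIITA, was lower in the DR-labelled library, with 43.3 and 67.3 CPM and -0.63.

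**Figure D5:**
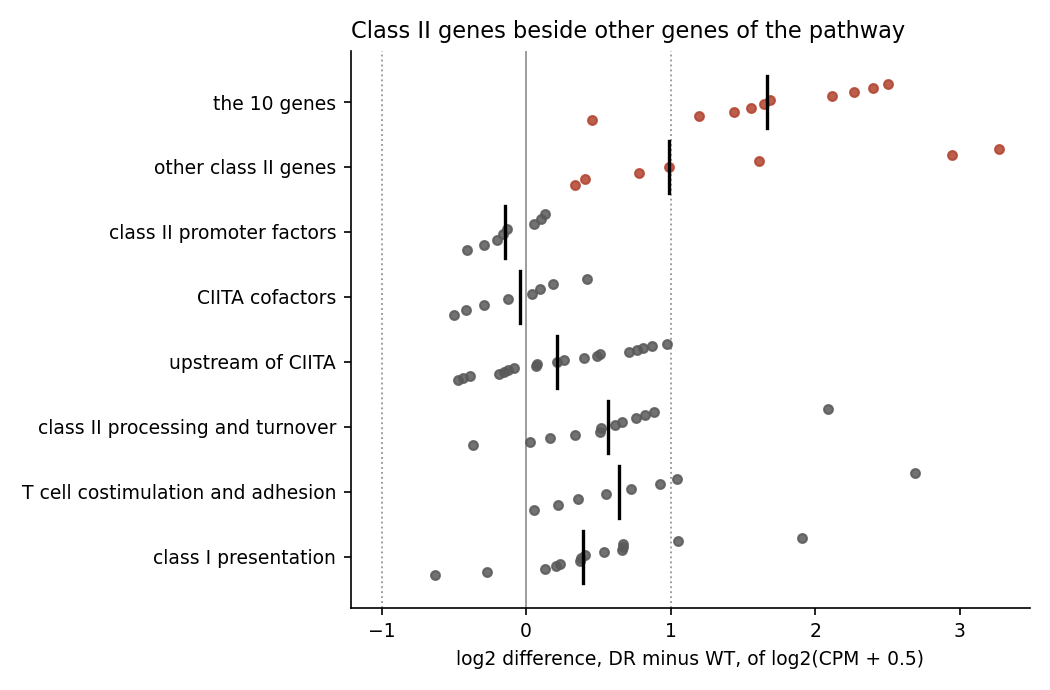
Log2 differences of the library labelled DR minus the library labelled WT for single genes (points) in 8 groups, with the median of each group as a black bar and dotted lines at 1 and -1. The medians are 1.67 for the 10 genes and 0.99 for other class II genes (both red), -0.15 for class II promoter factors and 0.39 for class I presentation genes. The 10 genes had been selected with these values known.

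Between HLA-DRA and HLA-DPB1, class II genes are interleaved on the chromosome with genes of other kinds, a comparison chosen after the values had been seen. In this interval TAP2, PSMB8, TAP1 and PSMB9 had log2 differences of 0.13, 0.41, 0.37 and 0.67, and BRD2, which lies between HLA-DMA and HLA-DOA, had -0.60. Including 3 protein-coding genes on either side, 1 of the 9 non-class II genes tested was past the limit, NOTCH4 with 98.6 and 17.1 reads. The shares over all genes tested were 7.48% higher and 4.16% lower, and 1 of 9 is near them. Of the 13 class II genes, 9 were past the limit. Most of the 13 are genes that had been selected with these values known, so nothing is read from this contrast of counts. Among the other class II genes of the interval, HLA-DRB5 and HLA-DOB were past the limit, while HLA-DOA and HLA-DQA2 were within it. HLA-DQB2 was just within it at 0.99, although its few reads gave a 6.27-fold ratio (2.27 to 24.1). With library totals or a pseudocount of 0.1 CPM, HLA-DQB2 was past the limit. None of the 6 genes nearest to CIITA was past the limit, a count near the share over all genes. NUBP1 stood at 0.02, DEXI at -0.16, CLEC16A at -0.20, TEKT5 at 0.44, TVP23A at -0.64 and SOCS1 at 0.98. With library totals or a pseudocount of 0.1 CPM, SOCS1 was past the limit. Around CD74, 2 of 6 genes were past the limit, ARSI (301 and 8 reads) and CAMK2A (39 and 2 reads). TCOF1 (0.34) and RPS14 (0.60), on either side of CD74, were not.

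Markers of cells that express class II constitutively were compared between the libraries. The counts below stand beside 7.48% of all genes tested past the limit in the DR-labelled library and 4.16% lower. Of 10 B cell markers, 3 were past the limit in the DR-labelled library, MS4A1 (157 and 8 reads), CD79A (137 and 32 reads) and CD79B (532 and 130 reads). FCER2 (79.5 and 60.4 CPM), BLK (80.6 and 57.5 CPM) and CR2 (23.1 and 12.1 CPM) were within it. The list summed to 201 and 136 CPM. Of 12 monocyte and macrophage markers, MRC1 (436 and 72 reads) was past the limit and the list summed to 88.8 and 81.4 CPM. Most of that sum came from CD68, a lysosomal glycoprotein, with 56.7 and 60.2 CPM and a log2 difference of -0.08. CD14 had 47 and 21 reads, CSF1R 39 and 13, and C1QB, TYROBP and CD163 had 0 reads in the WT-labelled library and 1 or 2 in the DR-labelled one. Of 10 dendritic cell markers, XCR1 (845 and 41.2 reads) and CLEC9A (156 and 3 reads) were past the limit. CD1C had 1 and 0 reads, FLT3 had 32 and 2, CLEC10A was not analysed here, and the list summed to 40.7 and 21.4 CPM. Of 8 T cell markers, 0 were past the limit, with a sum of 12.7 and 10.1 CPM and IL7R at 2 and 0 reads. The plasma cell markers past the limit were 2 of 10, MZB1 (451 and 224 CPM) and DERL3 (138 and 65.0 CPM). Of the same 10 markers, 6 had log2 differences below 0, among them SDC1 (-0.62) and XBP1 (-0.37), and the median was -0.13. The part of these cell types in the class II values was not tested.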

How the data were processed

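Bulk RNA sequencing of 1 library labelled DR and 1 labelled WT was used. The authors deposited 1 table of expected counts per gene, that is estimated counts that need not be whole, with no scaling, and with gene lengths. Bowtie 0.12.2 and hg19 are in the submitters' processing notes. The counting tool and annotation are not given in the sources used here. The deposited log2 ratios, p-values and q-values are the study's own comparison and were not used. Counts are fractional for 9108 of 18267 genes and were rounded. Genes without counts (663) were left out.

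Library sizes were scaled by TMM (edgeR 4.0.16, R 4.3.3), and genes with a summed count of 10 or more (16210) were compared as log2(CPM + 0.5), which understates ratios of low genes. Fold ratios are of scaled reads, with 95% Clopper-Pearson intervals, and levels have Poisson intervals (SciPy 1.17.1). With 1 library per group there is no residual spread for the quasi-likelihood test of edgeR, and no p-value is given. The procedure was tested on simulated counts. At this depth 3 reads are 0.0540 (DR) and 0.0861 CPM (WT).

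The 10 genes and all lists were chosen with earlier results of these data known. Genes named are the 10, those of each list past the limit at a mean of at least 1 CPM, its most abundant genes and defining markers at 0 reads. Further genes, such as those around the class II genes, were named after their values had been seen. Some genes of the lists are not reported here one by one. List genes were matched by symbol, or by NCBI Gene ID where the symbol had changed, and gene order is that of RefSeq (GRCh38.p14). Alternatives were DESeq2 1.42.0 size factors, library totals, other pseudocounts, filters and limits, copies summed and shortened lengths.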

Additional observations from a re-analysis of the deposited data

How the results depend on the processing

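No paired analysis was possible because each group holds 1 library, and for the same reason no library could be left out. All 10 genes were higher in the DR-labelled library with DESeq2 size factors, library totals, pseudocounts of 0.1 and 5 CPM, no filter, at least 50 reads and copies summed. The lowest and highest log2 differences over these settings were 0.34 and 2.61. Of the 10 genes, 9 were past the limit in each of these settings. The filter settings could not change this, since all 10 genes had more than 50 reads. A limit of 2 on the log2 scale left 4 of the 10. Over all genes that limit left 339 higher and 189 lower, by its construction, and a pseudocount of 5 CPM gave 423 and 333 in place of 1212 and 674, since it shrinks the differences of low genes. The same pseudocount moved 7 of the 10 genes outside their counting intervals, the most for HLA-DQB1 (1.73), while library totals moved CD74 (2.15) and summed copies moved HLA-DRB1 (1.79). Shortening each gene by 200 bases moved the ratio of HLA-DPA1 to HLA-DPB1 in the DR-labelled library to 3.91 and left those of HLA-DR, HLA-DQ and HLA-DM within their intervals (HLA-DO was not run). The median of the other class II genes went from 0.99 to 0.43 at 5 CPM and to 1.76 at 0.1 CPM. At 5 CPM, 0 of the B cell, of the monocyte and macrophage and of the processing genes were past the limit. HLA-DOB, PDCD1LG2, HLA-G, MZB1 and CLEC9A were also within it, which left 2 of the other class II genes and 1 each of the costimulation, class I, plasma cell and dendritic cell genes. Depth limits the genes at a few reads, such as HLA-DQB2 and HLA-DRB5 in the WT-labelled library.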

Other observations

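The genes closest to 3 of the class II genes in level were found by distance in log2(CPM + 0.5) over the 2 libraries, among the 16210 genes tested. With 2 libraries this describes a pair of levels and nothing more. CIITA (62.5 CPM in the DR-labelled library and 27.0 in the WT-labelled one) was nearest to CD37, a tetraspanin of B cells, at 62.8 and 27.2 CPM, followed by ARSA, a lysosomal sulfatase, at 60.8 and 27.9 CPM and PDE4DIP at 65.4 and 27.0 CPM. HLA-DRA was nearest to PRKD3, a protein kinase, at 376 and 149.5 CPM, then to BTG2 at 351 and 142 CPM and to the chemokine receptor CX3CR1 at 406 and 199 CPM. CD74 had no close match. The nearest, the transcription factor MAF at 1897 and 831 CPM, lay 0.91 away on the log2 scale, against 0.01 for CD37 and CIITA, and MYC and HLA-B followed at distances of 1.03 and 1.04.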
